A study of Mus musculus with 8 samples.

Results

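The Schlafen genes of the mouse form a compact family on chromosome 11, and 7 of them (Slfn1, Slfn2, Slfn3, Slfn4, Slfn5, Slfn8 and Slfn9) were followed here, taken by their symbols from the 32098 gene rows of the table. The family was selected on the measured difference of Slfn3 between the treatment groups, so the differences between the groups given below describe these tumours and are not tests of the family. All 7 genes passed the filter on low values, 1 FPKM or more in at least 4 of the 8 tumours, and each has a level in every tumour.

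Tumours labelled RI had been given radiation together with an immune checkpoint inhibitor (replicates 1, 2, 4 and 5), and tumours labelled ICI had been given the inhibitor alone (replicates 1, 2, 3 and 4). All 8 were tumours of the wild-type 4T1 line, a mouse mammary carcinoma line that is grafted into mice, so the inhibitor was shared by both groups and radiation was the named difference. The labels give neither the inhibitor, the radiation dose, the time of harvest, the host mice nor whether an RI tumour lay within the irradiated field, and the design text speaks of 3 replicates where 4 per group are listed. Nothing in the labels says that the samples of a group came from separate animals, and p-values therefore cover only the spread among the listed samples, part of which may be technical. RNA was taken from whole tumours, in which the loss of a cell type and a lower RNA content per cell cannot be told apart.

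Schlafen proteins share a core domain that binds RNA and, in several members, cleaves transfer RNA. Short members hold little more than this core, intermediate members carry a further linker domain, and long members add a helicase-like domain and enter the nucleus. Type I interferon induces many of them, and a long human member, SLFN11, stalls stressed replication forks and is known for sensitizing tumour cells to DNA damage. In mouse the short members are known from thymocytes and T cells, where Slfn2 keeps cells quiescent, and Slfn4 is known from macrophages and other myeloid cells.

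The 7 genes lie within 263806 bases of chromosome 11 (82951349 to 83215154, GRCm38). From left to right they are Slfn5, Slfn9, Slfn8, Slfn2, Slfn1, Slfn4 and Slfn3. Their longest coding sequences in GENCODE M21 fell into the 3 classes, with 1011 and 1134 bases for Slfn1 and Slfn2, 1806 and 1920 for Slfn4 and Slfn3, and 2652, 2730 and 2730 for Slfn5, Slfn8 and Slfn9. The coding bases of Slfn8 and Slfn9 were 92.7% identical where aligned, and those of Slfn3 and Slfn4 were 91.8% identical. Slfn1 and Slfn2 were 71.3% identical, and Slfn5 was 62.7% identical to Slfn8. Of all stretches of 50 bases in the transcripts, 9.30% of those of Slfn8 also occurred in Slfn9 and 10.1% in the pseudogene Slfn10-ps, and 7.39% of those of Slfn3 occurred in Slfn4. With any other gene, Slfn3 shared 16.0%, Slfn8 14.6%, Slfn9 11.9%, Slfn4 11.3% and Slfn5 11.1%. How the authors' counting treated fragments from shared stretches is not stated, so the levels of these copies are uncertain.

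The promoters carried different short elements in the long members and in the rest, and the sequences of 4 genes are printed whole, the 3 genes that were higher in RI and Slfn4, the neighbour and closest copy of Slfn3. They run from 250 bases before to 50 after the RefSeq start (GRCm38.p6), 5′ to 3′ on the strand of the gene, with the matched elements in capitals. Slfn9 and Slfn8, on the minus strand, hold an interferon-stimulated response element core, and Slfn3 and Slfn4, on the plus strand, hold an ETS-type element.
Slfn9, chr11:82991781-82992080: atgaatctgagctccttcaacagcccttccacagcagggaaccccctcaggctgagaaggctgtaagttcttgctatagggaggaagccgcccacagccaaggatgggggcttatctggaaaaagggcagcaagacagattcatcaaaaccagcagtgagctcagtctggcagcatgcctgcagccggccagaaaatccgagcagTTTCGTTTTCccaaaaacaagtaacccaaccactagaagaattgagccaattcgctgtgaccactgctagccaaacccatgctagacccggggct
Slfn8, chr11:83020761-83021060: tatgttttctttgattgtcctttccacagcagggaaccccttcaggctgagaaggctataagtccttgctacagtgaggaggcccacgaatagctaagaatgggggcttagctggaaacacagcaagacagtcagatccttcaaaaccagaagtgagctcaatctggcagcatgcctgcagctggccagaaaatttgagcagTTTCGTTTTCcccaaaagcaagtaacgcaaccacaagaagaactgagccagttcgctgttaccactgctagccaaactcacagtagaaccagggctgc
Slfn3, chr11:83191080-83191379: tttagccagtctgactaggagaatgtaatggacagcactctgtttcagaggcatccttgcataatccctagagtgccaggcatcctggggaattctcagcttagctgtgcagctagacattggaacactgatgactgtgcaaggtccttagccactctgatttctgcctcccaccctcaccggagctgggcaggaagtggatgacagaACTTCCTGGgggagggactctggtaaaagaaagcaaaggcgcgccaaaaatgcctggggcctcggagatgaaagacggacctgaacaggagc
Slfn4, chr11:83174936-83175235: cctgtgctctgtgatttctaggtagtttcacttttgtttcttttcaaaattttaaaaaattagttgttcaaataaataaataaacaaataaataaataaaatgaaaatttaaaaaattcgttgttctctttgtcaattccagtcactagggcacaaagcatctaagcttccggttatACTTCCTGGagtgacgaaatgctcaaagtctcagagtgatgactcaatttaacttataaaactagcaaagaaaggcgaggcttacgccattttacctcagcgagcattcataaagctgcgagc

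For the other 3 members, all on the plus strand, the 60 bases around the element are printed, again with the match in capitals.
Slfn5, chr11:82951922-82951981: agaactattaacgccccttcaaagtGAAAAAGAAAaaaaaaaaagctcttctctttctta
Slfn2, chr11:83065032-83065091: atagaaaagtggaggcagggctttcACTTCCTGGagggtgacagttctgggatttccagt
Slfn1, chr11:83116721-83116780: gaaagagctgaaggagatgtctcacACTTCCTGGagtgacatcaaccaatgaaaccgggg

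The element core GAAANNGAAA, searched on both strands, was present in 3 of 7 members, the long Slfn5, Slfn8 and Slfn9, and in 3.99% of the 27025 genes of the RefSeq promoter table, a gene with several promoters counting once. It began 45 bases before the start in Slfn9, 48 in Slfn8 and 155 in Slfn5, where it lies in a run of A bases. The element ACTTCCTGG, which was chosen after the promoters had been read, was present in the other 4 members, Slfn1, Slfn2, Slfn3 and Slfn4, and in 0.999% of all genes. Since it was picked from these promoters, nothing is read from its presence in them. This element began 42 bases before the start in Slfn3, 55 in Slfn2, 73 in Slfn4 and 74 in Slfn1. The interferon gamma element core TTCNNNGAA was found in 0 of 7 members and in 9.55% of all genes. The cores did not overlap, a match describes the letters only, and no match says nothing of a factor.

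Library size ran from 27013100 to 42622800 fragments. In each library the low values were whole multiples of 1 fragment for 98.6% to 98.8% of genes within 0.05 of a fragment, so the number of fragments behind each Schlafen level was known. Tumour ICI 1 stood apart from its group, with 14750 genes at 1 FPKM or more against 12682 to 13575 in the other 7. In tumour RI 4 the 3 rows Gm55118, Rn18s-rs5 and Gm55094 held 60.7% of the summed FPKM, against 0.968% to 2.25% elsewhere. The mitochondrial share of fragments did not overlap between the groups, at 2.56% to 3.22% in RI and 4.37% to 8.14% in ICI. The labelled tumour tissue had keratins of simple epithelium in every sample, with Krt8 between 412 and 792 FPKM in RI and between 468 and 1064 in ICI, whereas Epcam lay between 0 and 1.06 FPKM in RI and between 0.0372 and 5.02 in ICI.

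Across the family, 3 genes were higher in RI tumours (Slfn3, Slfn8 and Slfn9), 3 were at very high levels in tumour ICI 1 (Slfn1, Slfn2 and Slfn4), and Slfn5 overlapped between the groups. In limma over 13439 genes, 3 of the 7 members were called higher in RI at an adjusted p under 0.05, against 11.1% of all genes tested, and 0 were called lower, against 6.6%, or 17.7% of all genes in either direction. All 4 RI values lay above all 4 ICI values in the same 3 members, against 16.7% of all genes tested, and in 0 members did they all lie below, against 11.2%. The contrast chose the family, so nothing is read from these counts. The median log2 difference (RI minus ICI, on log2(FPKM + 1)) was 0.63 over the 7 members and 0.01 over all genes tested.

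**Figure D1:**
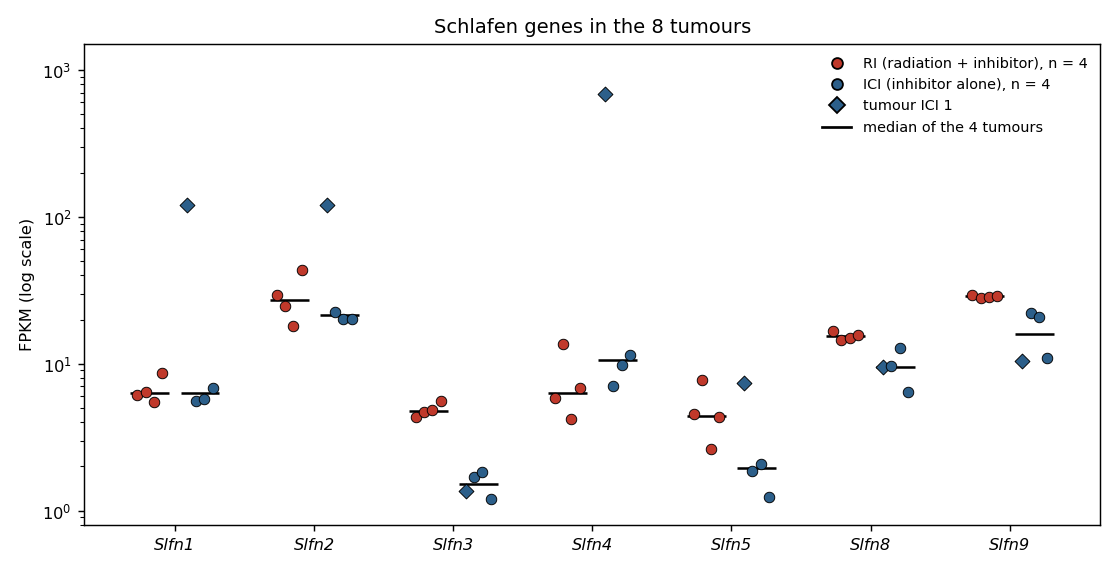
Levels of the 7 Schlafen genes in FPKM on a log axis, 1 point per tumour, with RI left of ICI for each gene and a bar at the median of 4 tumours. Slfn3, Slfn8 and Slfn9 do not overlap between the groups, and the diamond marks tumour ICI 1, at 690.1 FPKM for Slfn4.

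Slfn3, an intermediate member known from T cells and intestinal epithelium, was 3.21 times as high in RI as in ICI. It had 4.37, 4.71, 4.85 and 5.55 FPKM in RI tumours 1, 2, 4 and 5, and 1.37, 1.69, 1.82 and 1.20 FPKM in ICI tumours 1, 2, 3 and 4. The groups did not overlap, and tumour ICI 1 lay among the other ICI tumours. The means were 4.87 ± 0.495 FPKM in RI and 1.52 ± 0.285 FPKM in ICI (SD, n = 4 each), and the log2 difference was 1.22 (standard error 0.14). Between 403 and 807 fragments stood behind the RI values and between 154 and 232 behind the ICI values. The lowest RI value had an exact Poisson 95% interval of 3.96 to 4.82 FPKM and the highest ICI value one of 1.59 to 2.07 FPKM, which cover counting error only. These are the values for which the family was chosen.

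Slfn9, a long member, had 29.6, 27.9, 28.5 and 29.1 FPKM in RI tumours 1, 2, 4 and 5, and 10.48, 22.0, 20.7 and 10.9 FPKM in ICI tumours 1, 2, 3 and 4. The RI tumours were close to one another, with a coefficient of variation of 2.60%, whereas the ICI tumours varied by 38.5% and fell into a higher and a lower pair. The means were 28.7 ± 0.747 FPKM in RI and 16.0 ± 6.17 FPKM in ICI (SD, n = 4 each), a ratio of 1.79 and a log2 difference of 0.88 (standard error 0.24).

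Slfn8, its closest copy in sequence, had 16.6, 14.5, 15.01 and 15.8 FPKM in RI tumours 1, 2, 4 and 5, and 9.48, 9.59, 12.7 and 6.45 FPKM in ICI tumours 1, 2, 3 and 4. Every RI tumour lay above every ICI tumour. The means were 15.5 ± 0.928 FPKM in RI and 9.56 ± 2.56 FPKM in ICI (SD, n = 4 each), a ratio of 1.62 and a log2 difference of 0.67 (standard error 0.18). The ratio of Slfn9 to Slfn8 within a tumour, which does not depend on library size, was 1.78 to 1.92 in RI and 1.10 to 2.29 in ICI. There were 2.84 to 3.80 FPKM of Slfn8 per FPKM of Slfn3 in RI tumours and 5.38 to 6.98 in ICI tumours. The family was chosen for the difference of Slfn3, so nothing is read from this ratio.

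The calls of Slfn8 and Slfn9 were lost in several alternatives. Without ICI 4, RI 1, RI 2, RI 4 or RI 5 in turn, and with TPM, no filter or the length and GC trends removed, limma called 1 of the 7 members, Slfn3, and without ICI 2 it called 2, Slfn3 and Slfn9. Calls fell among all genes as well, from 17.7% of those tested to between 0.751% (no filter) and 12.2% (without ICI 2) in these fits. The log2 differences were 0.52 to 0.80 for Slfn8 and 0.68 to 1.05 for Slfn9 in the same fits. In these tumours the longer genes were shifted towards RI, the median log2 difference being 0.12 among the 1332 genes of 5593 to 6899 exon bases, where Slfn9 and Slfn5 fall, 0.07 among those of 3769 to 4596, where Slfn8 falls, and 0.01 among those of 3051 to 3768, where Slfn3 falls. With the trends removed the log2 differences were 1.13 for Slfn3, 0.68 for Slfn9 and 0.55 for Slfn8.

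**Figure D2:**
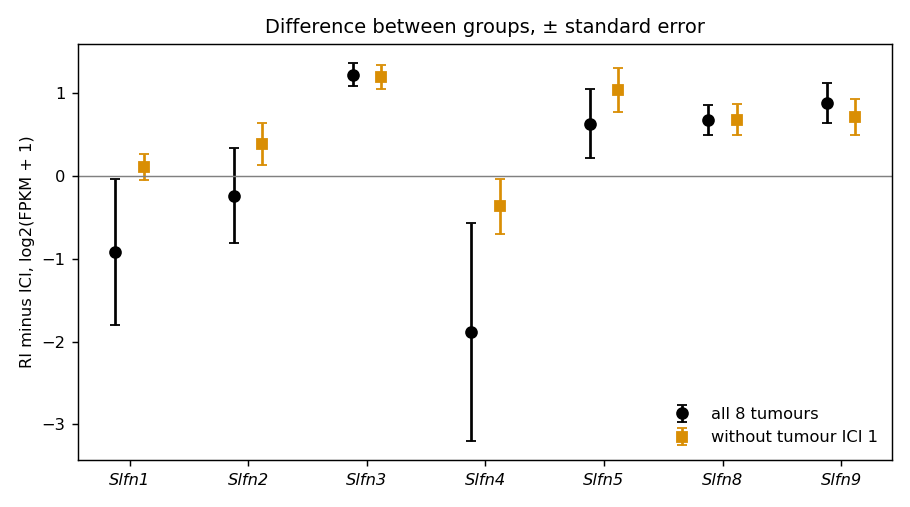
Log2 difference RI minus ICI of each member on log2(FPKM + 1), with bars of 1 standard error, for all 8 tumours (circles) and without tumour ICI 1 (squares). Slfn3, Slfn8 and Slfn9 moved little when ICI 1 was left out, whereas Slfn4 went to −0.37, Slfn2 to 0.38, Slfn1 to 0.11 and Slfn5 to 1.04.

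Slfn5, the remaining long member, which is induced by interferon, differed between the groups once tumour ICI 1 was set aside. It had 4.54, 7.77, 2.64 and 4.33 FPKM in RI tumours 1, 2, 4 and 5, and 7.36, 1.87, 2.07 and 1.23 FPKM in ICI tumours 1, 2, 3 and 4. The RI values lay above those of ICI 2, 3 and 4 and on both sides of ICI 1. The mean was 4.82 ± 2.14 FPKM in RI and 3.13 ± 2.84 FPKM in ICI (SD, n = 4 each), and 1.72 ± 0.437 FPKM in the 3 ICI tumours other than ICI 1. The log2 difference was 0.63 (standard error 0.42) with all tumours and 1.04 (standard error 0.27) without ICI 1, when limma called 4 members, Slfn5 among them, and 20.04% of all genes tested. Without both ICI 1 and RI 4 it called 2 members, Slfn3 and Slfn5, and 23.1% of all genes tested. The antisense transcript Slfn5os overlaps Slfn5 and had between 0 and 12 fragments per tumour, against 331 to 1580 for Slfn5, and the strand setting of the counting is not given in the sources used here.

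Slfn4, the myeloid member, was set by a single tumour. It had 5.81, 13.6, 4.22 and 6.84 FPKM in RI tumours 1, 2, 4 and 5, and 690.1, 7.08, 9.83 and 11.5 FPKM in ICI tumours 1, 2, 3 and 4. ICI 1 held 90120 fragments of Slfn4 and lay 50.6 times above the highest of the other 7 tumours, which overlapped between the groups. The mean was 7.63 ± 4.15 FPKM in RI and 179.6 ± 340.3 FPKM in ICI (SD, n = 4 each), or 9.46 ± 2.22 FPKM in the 3 other ICI tumours. The log2 difference was −1.88 (standard error 1.32) with all tumours and −0.37 (standard error 0.33) without ICI 1, and limma did not call it in either fit.

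Slfn1, a short member that restrains the growth of thymocytes, had 6.16, 6.42, 5.46 and 8.66 FPKM in RI tumours 1, 2, 4 and 5, and 119.5, 5.60, 5.79 and 6.82 FPKM in ICI tumours 1, 2, 3 and 4. Apart from ICI 1 the groups overlapped, with RI 5 the highest of the other 7 tumours. The log2 difference was −0.92 (standard error 0.88) with all tumours and 0.11 (standard error 0.16) without ICI 1.

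Slfn2, the quiescence factor of T cells, had 29.6, 24.6, 17.9 and 43.7 FPKM in RI tumours 1, 2, 4 and 5, and 121.1, 22.5, 20.1 and 20.2 FPKM in ICI tumours 1, 2, 3 and 4. Its excess in ICI 1 was smaller than those of Slfn4 and Slfn1, at 2.77 times the highest other tumour against 50.6 and 13.8 times. The log2 difference was −0.24 (standard error 0.57) with all tumours and 0.38 (standard error 0.25) without ICI 1. A transcript antisense to Slfn2, Gm20234, lay between 0.230 and 0.929 FPKM in RI and between 0.138 and 2.84 FPKM in ICI.

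The tumour with these high levels was also the one with the most neutrophil RNA. The 9 neutrophil markers listed (among them S100a8, Ly6g, Csf3r and Camp) summed to 20.01 to 80.0 FPKM in RI and 210.9 to 21660 FPKM in ICI, where ICI 1 had 21660 and ICI 2, 3 and 4 had 210.9 to 654.6. Ly6g, a surface protein of mouse neutrophils, lay between 0 and 0.0393 FPKM in RI, at 0.263 to 0.868 FPKM in ICI 2, 3 and 4 and at 18.5 FPKM in ICI 1. Markers of B and plasma cells (1489 FPKM against 7.69 to 97.9 in the other tumours), of endothelium (93.8 against 13.0 to 38.1), of erythroid cells (489 against 0.465 to 249.2), of T cells (32.4 against 7.23 to 24.1) and of NK cells (8.89 against 2.05 to 6.38) were also highest in ICI 1. Their part in the levels of Slfn1, Slfn2, Slfn4 and Slfn5 was not tested. Over the other 7 tumours the neutrophil sum was higher in every ICI tumour than in every RI tumour, while Slfn1, Slfn2 and Slfn4 overlapped between the groups.

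**Figure D3:**
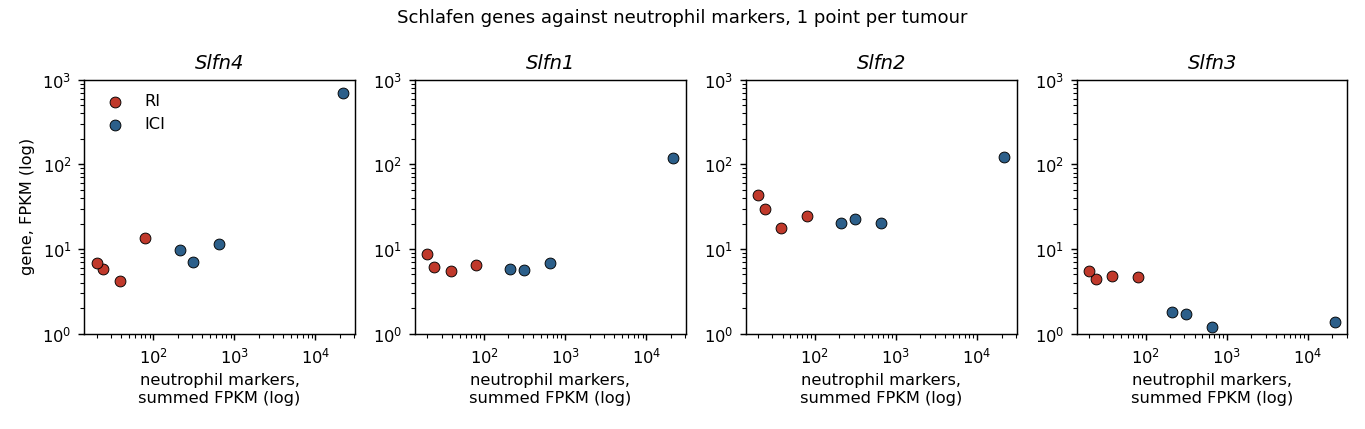
Level of Slfn4, Slfn1, Slfn2 and Slfn3 in FPKM against the summed FPKM of 9 neutrophil markers, both on log axes, 1 point per tumour (RI red, ICI blue). ICI 1, at 21660 FPKM of markers, is the highest point for Slfn4, Slfn1 and Slfn2 and lies at 1.37 FPKM for Slfn3.

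Markers of other cells moved with the groups as well. The sums over 6 fibroblast markers were 76.2 to 359 FPKM in RI and 37.4 to 51.6 FPKM in ICI, and those of 4 erythroid markers were 0.465 to 44.0 FPKM in RI and 87.0 to 489 FPKM in ICI, with no overlap in either. B and plasma cell markers had 7.69 to 40.3 FPKM in RI and 57.9 to 1489 FPKM in ICI. The sums of 10 T cell markers (7.23 to 23.4 FPKM in RI and 13.1 to 32.4 in ICI), 12 monocyte and macrophage markers (611 to 1219 in RI and 464 to 811 in ICI), 6 NK cell markers (3.33 to 6.38 in RI and 2.05 to 8.89 in ICI) and 8 dendritic cell markers (4.49 to 18.9 in RI and 7.57 to 15.9 in ICI) overlapped, as did those of endothelium and epithelium. Skeletal muscle markers summed to 87.1 to 483 FPKM in RI and 1.16 to 184 FPKM in ICI, where ICI 3 alone reached into the RI range. Among these 4 markers 2 rose (Ckm and Myh4), 0 fell and 2 did not pass, with a median log2 difference of 3.22. Of the 12 monocyte and macrophage markers 2 rose, 0 fell and 10 did not pass. Over all genes tested 11.1% were called higher and 6.6% lower, and nothing is read from the counts of these 2 lists. Adgre1, which encodes the macrophage protein F4/80, rose to 7.68 ± 1.37 FPKM in RI, against 1.22 ± 0.171 FPKM in ICI (SD, n = 4 each; limma with Benjamini-Hochberg adjustment, adjusted p = 0.00158). No marker of any list was at 0 in all 8 tumours, and the part of these cells in the levels of Slfn3, Slfn8 and Slfn9 was not tested.

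Levels per length were ordered over all tumours, and neighbours in that order were compared within each tumour on log2(FPKM + 1). The comparison does not use the treatment, and library size enters only through the added 1. By the mean over 8 tumours, which ICI 1 carries for Slfn4 and Slfn1, the order was Slfn4, Slfn2, Slfn9, Slfn1, Slfn8, Slfn5 and Slfn3, with 93.6, 37.5, 22.4, 20.6, 12.5, 3.97 and 3.196 FPKM. Of the 6 pairs of neighbours only Slfn8 over Slfn5 was beyond the spread, with Slfn8 higher in 8 of 8 tumours by 1.55 ± 0.65 on the log2 scale (SD; two-sided exact sign-flip permutation p = 0.00781, the smallest that 8 tumours allow, adjusted p = 0.0469 over 6 pairs). The order by the mean was turned round in most tumours for Slfn4, above Slfn2 in 1 of 8, and for Slfn1, above Slfn8 in 2 of 8. Without ICI 1, 4 of these pairs passed the same exact permutation test, 2 of them the other way round, with Slfn2 above Slfn4 in 7 of 7 tumours (adjusted p = 0.0312) and Slfn8 above Slfn1 in 6 of 7 (adjusted p = 0.0469). Leaving out any other tumour brought 0, since with 7 tumours a single pair cannot pass after the adjustment. By the median the order was Slfn9, Slfn2, Slfn8, Slfn4, Slfn1, Slfn5 and Slfn3, with 24.9, 23.5, 13.6, 8.45, 6.29, 3.48 and 3.097 FPKM. In this order Slfn2 over Slfn8 (8 of 8 tumours) and Slfn1 over Slfn5 (7 of 8 tumours, p = 0.0156) passed the same exact test, each with adjusted p = 0.0469, while Slfn9 and Slfn2, Slfn8 and Slfn4, Slfn4 and Slfn1, and Slfn5 and Slfn3 did not differ beyond their spread. Both orders came from the tumours that were then tested, and each was adjusted over its own 6 pairs only. The p-values therefore describe the orders and are no independent test of them.

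The make-up of the family followed from these levels. The 7 genes summed to 96.7, 99.5, 78.6 and 114 FPKM in RI tumours 1, 2, 4 and 5, and to 959, 70.3, 73.1 and 58.3 FPKM in ICI tumours 1, 2, 3 and 4. Slfn4 took 71.9% of the sum in ICI 1, against 5.38% to 13.7% in RI and 10.1% to 19.7% in the other ICI tumours. Slfn3 took 4.52% to 6.18% of the sum in RI, against 0.143% to 2.49% in ICI. The family was chosen for the difference of this gene, so nothing is read from its share.

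With group means taken out, Slfn3, Slfn8 and Slfn9 had positive correlations over both groups together, and ICI 1 set those of the other 4. Among the RI tumours Slfn3 did not rise with Slfn8 and Slfn9. RI 1 was the lowest of them for Slfn3 (4.37 FPKM) and the highest for Slfn8 (16.6 FPKM) and Slfn9 (29.6 FPKM). The r values were not split by group. After each group's mean was taken out, Pearson's r of log2(FPKM + 1) over the 8 tumours was 0.69 between Slfn3 and Slfn8, 0.74 between Slfn3 and Slfn9 and 0.66 between Slfn8 and Slfn9. Among Slfn1, Slfn2, Slfn4 and Slfn5 it ran from 0.82 to 0.98, and ICI 1 sets those values. Without ICI 1, over 7 tumours, the first set had 0.73, 0.76 and 0.87, and in the second Slfn1 with Slfn2 (0.82) and Slfn4 with Slfn5 (0.75) stood above the rest, at 0.09 to 0.35, which pairs across the sets also reached (0.35 for Slfn2 with Slfn3). The median over all 21 pairs was 0.08, and it was −0.42 without ICI 4 and 0.45 without ICI 3. The points share the depth and the make-up of a library, and these values are descriptions.

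**Figure D4:**
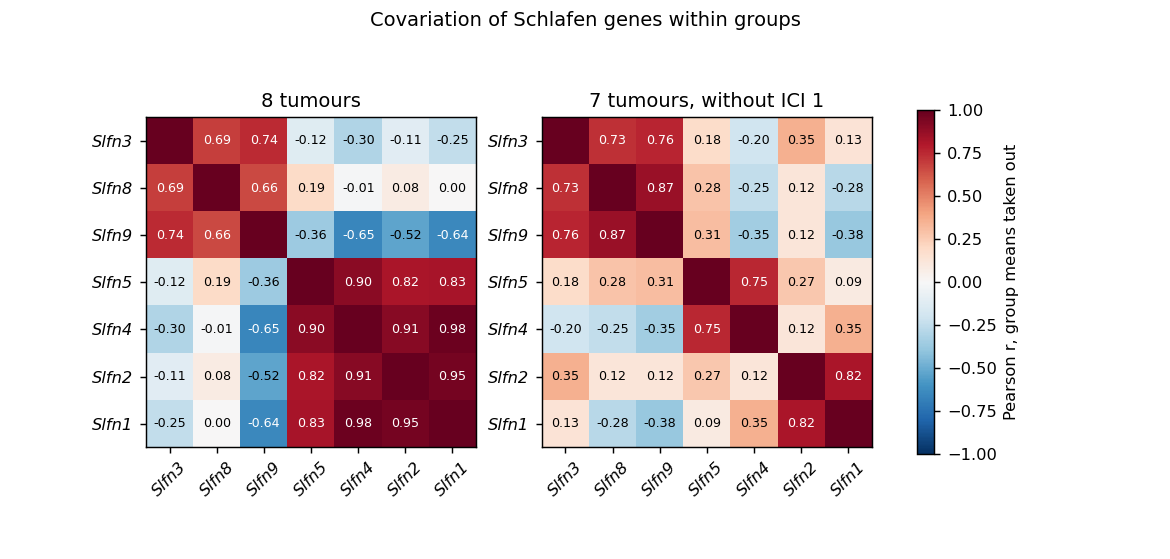
Pearson's r between Schlafen genes on log2(FPKM + 1) with the mean of each group taken out, over 8 tumours (left) and over 7 without ICI 1 (right), from blue (negative) to red (positive). Slfn3, Slfn8 and Slfn9 form a red block in both panels, at 0.66 to 0.74 and 0.73 to 0.87.

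The genes whose levels over the 8 tumours were most like Slfn3 were Trappc9 (Pearson's r = 0.996), Nup214 (0.995), Man2a1 (0.995), Wdr7 (0.994) and Erc1 (0.992), of 11577 genes compared. These r values include the difference between the groups for which Slfn3 was chosen. With the group means taken out the genes most like Slfn3 were others, Casp8ap2 (0.986), Rpap2 (0.975), Ston1 (0.963), Ttf2 (0.958) and Faap24 (0.954). By the same measure Slfn8 was most like Pibf1 (0.989), Zbp1 (0.973) and Kank2 (0.966), and Slfn9 was much like Cdk14 (0.990) and Tpr (0.986). Those most like Slfn4 were Calcrl (0.997), Pde4b (0.995) and Ptp4a3 (0.995), and ICI 1 had 46.3 FPKM of Calcrl. For Slfn1 they were Prx (0.999), Smarca2 (0.998) and Arhgap25 (0.997), for Slfn2 Klf13 (0.997), Lpar2 (0.994) and Tk2 (0.993), and for Slfn5 Mfsd14b (0.988), Mir1291 (0.988) and Ms4a4d (0.986). ICI 1 is the extreme point in the values of Slfn1, Slfn2 and Slfn4, and without it, over 7 tumours, r was 0.911 to 0.954 for the genes named with Slfn4, 0.797 to 0.940 for Slfn1, 0.957 to 0.988 for Slfn2 and 0.959 to 0.968 for Slfn5.

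Of the interferon pathway that induces Schlafen genes, 21 of 28 antiviral targets rose in RI and 0 of 5 receptors passed the test. Of 28 type I interferon-stimulated genes, all tested, 21 rose, 0 fell and 7 did not pass (limma, adjusted over all genes), with a median log2 difference of 1.11. Over all genes tested 11.1% were called higher and 6.6% lower, with a median of 0.01, and the counts of the lists that follow stand beside the same shares. Trim30a, an interferon-induced ubiquitin ligase, rose to 20.5 ± 4.23 FPKM in RI, against 6.09 ± 2.54 FPKM in ICI (SD, n = 4 each; limma adjusted p = 0.0126). Irf7, which amplifies the interferon response, rose to 47.3 ± 23.2 FPKM in RI, against 16.3 ± 4.14 FPKM in ICI (limma adjusted p = 0.0263). The count of 21 was 10 without ICI 4, 12 without RI 1 or RI 2, 13 without RI 5 or with TPM, and 8 with no filter.

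Of 13 interferon signal transducers 3 rose, 1 fell and 9 did not pass, with a median log2 difference of 0.39. Jak2, a kinase of the interferon gamma receptor, rose to 28.3 ± 1.43 FPKM in RI, against 15.8 ± 3.95 FPKM in ICI (limma adjusted p = 0.0173). Irf9, the DNA-binding part of the factor that type I interferon activates, had 15.6 ± 3.15 FPKM in RI and 12.5 ± 2.64 FPKM in ICI (limma adjusted p = 0.291). Of 5 interferon receptor genes tested 0 passed. Ifnar1, a subunit of the type I receptor, had 11.9 ± 1.43 FPKM in RI and 12.8 ± 2.73 FPKM in ICI (limma adjusted p = 0.755). Of 20 interferon genes listed 8 were in the table and 0 reached the filter, with Ifng at 0.513 ± 0.560 FPKM in RI and 0.537 ± 0.0651 FPKM in ICI.

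The DNA damage side was mixed. Of 20 genes of the replication stress response 5 rose, 1 fell and 14 did not pass, with a median log2 difference of 0.39. Atm, the kinase that senses double-strand breaks, rose to 7.22 ± 1.38 FPKM in RI, against 2.26 ± 0.508 FPKM in ICI (limma adjusted p = 0.0115). Rpa1, a subunit of the complex that coats single-stranded DNA at stressed forks, rose to 36.5 ± 12.5 FPKM in RI, against 13.2 ± 4.61 FPKM in ICI (limma adjusted p = 0.0171). Of 14 p53 targets tested 3 rose (Ccng1, Zmat3 and Aen), 1 fell (Bax) and 10 did not pass, with a median of −0.11, and Cdkn1a, the p53-induced inhibitor of cyclin-dependent kinases, had 19.2 ± 5.29 FPKM in RI and 15.1 ± 7.47 FPKM in ICI (limma adjusted p = 0.404).

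Of the pathways named for the short members, 13 genes of lymphocyte quiescence had 1 rise (Foxo1), 0 falls and 12 that did not pass. Of 11 tested genes of angiogenin ribonucleases, which cleave transfer RNA, and the integrated stress response, 0 rose, 1 fell (Ppp1r15a) and 10 did not pass. Trac, the constant chain of the T cell receptor alpha, fell to 2.26 ± 0.897 FPKM in RI, against 5.49 ± 1.37 FPKM in ICI (limma adjusted p = 0.0211), and Cd8a had 2.29 ± 1.08 FPKM in RI and 2.84 ± 0.807 FPKM in ICI (limma adjusted p = 0.492).

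The classes lie in blocks along the cluster, long, short and then intermediate. With all tumours the differences were positive in the long members and negative in the short ones, while the intermediate Slfn4 and Slfn3 took opposite signs. The long members and Slfn10-ps, which neighbour one another at the left end, had differences of 0.58 to 0.88, Slfn2, Slfn1 and Slfn4 in the middle had −0.24, −0.92 and −1.88, and Slfn3 at the right end had 1.22. The negative values rest on ICI 1, and without it they were 0.38 for Slfn2, 0.11 for Slfn1 and −0.37 for Slfn4. Slfn3 and Slfn4 are next to each other, on the same strand and close in sequence. The ratio of Slfn4 to Slfn3 was 0.871 to 2.90 in RI tumours, 4.20 to 9.57 in ICI 2, 3 and 4, and 504 in ICI 1. The family was chosen for the difference of Slfn3, so nothing is read from this ratio either.

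**Figure D5:**
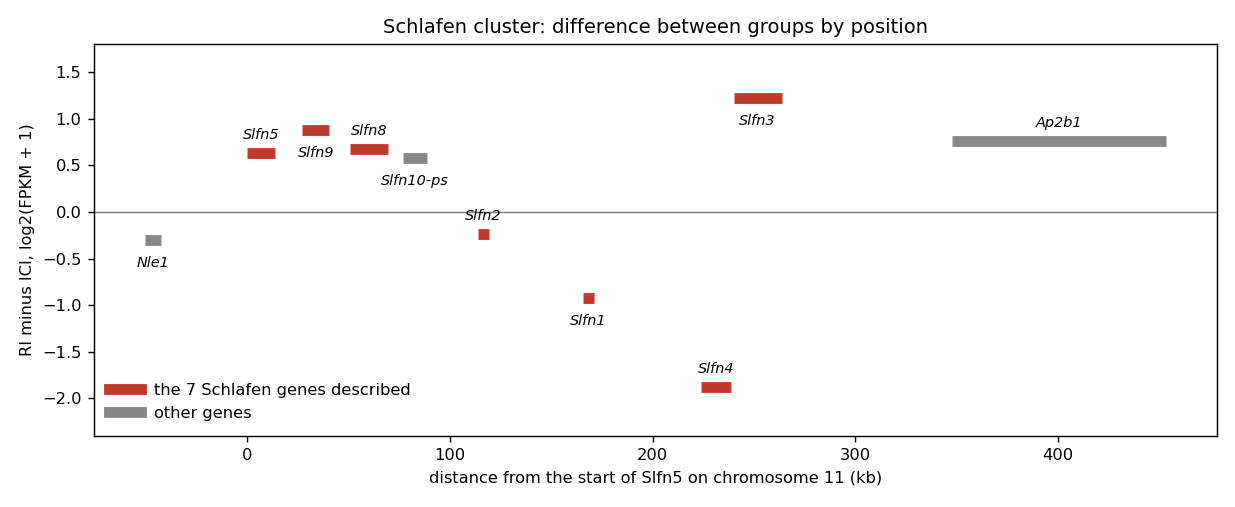
Difference RI minus ICI on log2(FPKM + 1) of tested genes in and next to the Schlafen cluster drawn at their distance in kilobases from the start of Slfn5, with the 7 members in red. Slfn5, Slfn9, Slfn8 and Slfn3 are above 0 and Slfn2, Slfn1 and Slfn4 below it, where ICI 1 sets the values.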

How the data were processed

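Whole-tumour RNA sequencing of 8 samples was used, grouped by the sample titles. The deposited values are FPKM in 1 table; HISAT2 and GRCm38 (mm10) are named without settings, per the submitters' processing notes, while the counting program and annotation release are not stated there. Of 32098 rows 31407 matched GENCODE M21 by identifier. The 13439 genes reaching 1 FPKM in 4 or more tumours were tested on log2(FPKM + 1), a scale that understates changes of low genes, with limma 3.58.1 in R 4.3.3 (trend and robust variance, two-sided, Benjamini-Hochberg over all genes, threshold 0.05). The method was checked on simulated data. Fragment numbers came from exon length and the step size of low FPKM values (up to 50 fragments). All libraries of a group differed by more than sampling noise (lowest chi-square 37.6 per gene). Coding identity came from global alignment, and promoters are from RefSeq, matched by symbol for 7 of 7 members. The members, lists and settings were chosen with earlier results of these data known. Genes named outside the family were the members of the context lists with the smallest p, genes fixed by name, the genes most like a member (3 or 5 each) and the neighbours of the cluster; a few genes that these rules name are not reported here. Other settings are given in the closing section. The labels name no batch.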

Additional observations from a re-analysis of the deposited data

Results flagged for a closer look

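In 3 of the 14 sets of 4 values (7 members in 2 groups) the highest tumour stood far from the other 3 on the log2 scale, and in each it was ICI 1. Slfn4 had 690.1 FPKM there, Slfn1 119.5 FPKM and Slfn2 121.1 FPKM, with gaps of 0.902, 0.942 and 0.940 of the whole range, above the critical value of Dixon's test. For normal values chance gives such a gap in about 1 of 20 sets, but these 3 sets share tumour ICI 1 and are not independent. The same tumour held 21660 FPKM of neutrophil markers, and the part of these cells was not tested.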

How the results depend on the processing

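Slfn3, Slfn5, Slfn8 and Slfn9 were higher in RI under each alternative in which they were tested (log2 differences of 0.60 to 1.77, 0.30 to 1.24, 0.51 to 0.98 and 0.61 to 1.20), and Slfn4 was lower (−2.50 to −0.16), whereas Slfn1 (−1.39 to 0.18) and Slfn2 (−0.68 to 0.58) took both signs. The 3 members called became 1 with no filter, with TPM or with the length and GC trends removed, and 1 to 4 with each tumour left out. All genes called, 2373, became 241 with no filter, 280 with TPM, 4319 with array weights, 1581 with the trends removed, 4990 after rescaling to matched genes outside the mitochondrial genome, and 336 to 2693 with each tumour left out. The interferon-stimulated genes that rose, 21, became 8 with no filter, 13 with TPM and 10 to 22 with each tumour left out. Of 6 neighbour pairs in level, 1 passed, against 0 to 4 with each tumour left out, 0 without both ICI 1 and RI 4, which leaves 6 tumours, and 2 in the order of the median. The rescaling shifted the median of all genes by 0.28, and the differences of Slfn8 and Slfn9 were then 0.98 and 1.20. The share of calls that were higher was 62.6%, against 48.0% after median centring, 78.8% with no filter and 90.2% after the rescaling. The median r between members was 0.08, and −0.42 to 0.45 with each tumour left out. The rescaling, voom on fragments, the order by the median, the values of likeness without ICI 1 and all alternatives for the r between members were added after the data were seen.

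Replicate numbers 1, 2 and 4 occur in both groups, and same-numbered tumours did not deviate together (r across genes of −0.12 to −0.09). Differently numbered tumours had −0.15 to 0.21, so these values cannot tell whether the numbers pair the tumours. With the number as a replicate block 22 genes, 0 members and 3 interferon-stimulated genes were called.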

Other observations

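Of 4 further rows named Slfn, Slfn10-ps, a transcribed pseudogene close to Slfn8 and Slfn9, had 1.37, 1.31, 1.54 and 1.68 FPKM in RI tumours 1, 2, 4 and 5, and 0.939, 0.582, 0.579 and 0.539 FPKM in ICI tumours 1, 2, 3 and 4, with no overlap. Slfn14, the erythroid and platelet member, had 10 fragments in ICI 1 and was listed at 0 in the other 7 tumours. Slfnl1, a distant relative on chromosome 4, had 0 to 3 fragments in RI and 2 to 15 in ICI.

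Beyond the cluster, Ap2b1, a subunit of the clathrin adaptor complex AP-2, rose to 22.4 ± 0.468 FPKM in RI, against 13.1 ± 3.31 FPKM in ICI (SD, n = 4 each; limma adjusted p = 0.0228). On the other side Nle1, which acts in ribosome assembly, had 10.52 ± 2.42 FPKM in RI and 13.1 ± 2.38 FPKM in ICI (limma adjusted p = 0.309), and Unc45b and Fndc8 did not reach the filter.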
